A study of Mus musculus with 9 samples.

Results

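Immediate early genes and heat shock genes were followed in macrophages sorted from the inflamed colon of mice. In some of the mice Arnt was targeted for deletion in myeloid cells, and the others were controls. A list of 40 gene symbols was taken, 29 immediate early genes and 11 heat shock genes, and a gene was measured by the probe sets of the array that carry its symbol and no other. The brightest of these, by its mean over the 9 arrays, stood for the gene. In all 38 genes were measured, 28 immediate early and 10 heat shock genes, of the 22180 symbols that have a probe set of their own. Gadd45a and Hsp90ab1 have none here and were left out.

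The arrays hold RNA of lamina propria macrophages (CD45+, CD11b+, F4/80+), the resident and recruited phagocytes of the tissue under the gut lining, from 5 LysMCre and 4 LysMCre;Arntfl/fl mice, with 1 array per mouse. All mice were female, of C57BL/6 background and housed together, and their age is not given in the sources used here. All drank 3% dextran sodium sulfate (DSS), a chemical that injures the colonic epithelium, for 5 days and plain water for 3 more, and the cells were sorted on Day 8, so no untreated mouse is part of the comparison. Both genotypes carry the LysMCre allele, in which the lysozyme M gene drives Cre recombinase in macrophages and neutrophils, and in LysMCre;Arntfl/fl mice it deletes floxed Arnt. In cells from bone marrow the paper reports partial deletion in neutrophils and more efficient deletion in macrophages. ARNT is the partner protein that hypoxia-inducible factors need to bind DNA, and also that of the aryl hydrocarbon receptor. Before the sort the colons were shaken with EDTA and DTT and then digested with enzymes at body temperature, and how long the cells of each mouse were handled is not given in the sources used here.

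Immediate early genes are switched on within minutes of a stimulus without new protein synthesis: kinases such as ERK, p38 and JNK activate factors already bound at their promoters, chiefly SRF with its ELK partners and CREB, and the RNAs are short-lived. Many encode transcription factors (FOS, JUN, EGR and NR4A families), others encode inhibitors of the same pathways (DUSP phosphatases, ZFP36). Heat shock genes encode chaperones, which keep proteins folded, and are driven by the factor HSF1 when unfolded proteins build up. In macrophages both classes respond to bacterial products and cytokines, and both respond to the warming and enzyme digestion of tissue.

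Promoter windows of RefSeq genes (GRCm38.p6, 250 bases before to 50 after a start site) were available for 24 of the 28 immediate early and 8 of the 10 heat shock genes. The heat shock element GAANNTTC, searched on both strands (it reads alike on both), was in the windows of 7 of these 8 heat shock genes, all but Dnajb1, and of 2 of the 24 immediate early genes (Fosl2 and Jun), against 9.04% of all 27025 genes with a window. A match extended by 1 more GAA or TTC unit at the same spacing was in 3 of the 8 (Hsph1, Hspd1 and Hspe1) and 0 of the 24, against 0.662% of all genes. Hspd1 and Hspe1 share most of a window, and the windows of Hspa1a and Hspa1b are nearly identical. The 8 windows are therefore not independent, and here and below 1 stretch can count for both genes of a pair. The windows below show these heat shock elements in capitals. They are the window of Hspe1 (chr1:55087898-55088197, plus strand), which shares 285 of its 300 bases with a window of Hspd1, the neighbouring gene read in the opposite direction, then that of Hsph1 (chr5:149636287-149636586, minus strand), and those of the paralogs Hspa1a (chr17:34972107-34972406, minus strand) and Hspa1b (chr17:34959189-34959488, minus strand).
Hspe1: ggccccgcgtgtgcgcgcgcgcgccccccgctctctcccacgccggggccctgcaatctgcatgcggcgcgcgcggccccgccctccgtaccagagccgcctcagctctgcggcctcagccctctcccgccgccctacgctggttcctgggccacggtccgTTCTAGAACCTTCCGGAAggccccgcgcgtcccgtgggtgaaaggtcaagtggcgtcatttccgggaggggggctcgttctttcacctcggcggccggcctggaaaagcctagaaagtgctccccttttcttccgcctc
Hsph1: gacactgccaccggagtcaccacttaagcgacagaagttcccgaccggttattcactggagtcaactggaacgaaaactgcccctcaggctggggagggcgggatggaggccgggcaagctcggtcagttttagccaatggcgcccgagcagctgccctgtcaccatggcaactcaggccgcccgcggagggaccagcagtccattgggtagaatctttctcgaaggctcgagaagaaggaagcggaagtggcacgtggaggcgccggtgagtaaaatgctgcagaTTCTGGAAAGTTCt
Hspa1a: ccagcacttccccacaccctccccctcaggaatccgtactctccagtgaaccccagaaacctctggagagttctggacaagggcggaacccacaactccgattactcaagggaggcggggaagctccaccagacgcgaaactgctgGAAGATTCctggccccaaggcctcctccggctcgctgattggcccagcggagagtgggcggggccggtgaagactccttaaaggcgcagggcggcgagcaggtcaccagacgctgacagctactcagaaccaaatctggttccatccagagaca
Hspa1b: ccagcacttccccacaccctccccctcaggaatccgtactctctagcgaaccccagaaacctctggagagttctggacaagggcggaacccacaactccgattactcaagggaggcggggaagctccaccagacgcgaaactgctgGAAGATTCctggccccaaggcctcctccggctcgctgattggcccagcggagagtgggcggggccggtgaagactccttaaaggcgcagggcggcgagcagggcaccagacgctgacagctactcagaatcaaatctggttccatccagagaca

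In the Hspe1 window the capitals form 1 stretch upstream of the start site, whereas in the Hsph1 window they lie just after it. The Hspa1a and Hspa1b windows were identical at 296 of 300 bases, with the differences C44T, T47C, T249G and C276T (the Hspa1a base first, positions counted from 1 at the 5′ end), none of them in the heat shock element. The RNAs of these near-identical genes can bind the same probes, so the values of Hspa1a and Hspa1b are uncertain as measures of 1 gene each. In the immediate early class, the short CREB site TGACG (either strand) was in the windows of 15 of 24 genes against 23.0% of all genes, and the full CREB site TGACGTCA, which contains it, in 3 (Dusp1, Btg2 and Maff) against 2.03%. The short site was also in the windows of 4 of 8 heat shock genes (Hspb1, Hspd1, Hspe1 and Dnajb1). The serum response element was in 2 (Egr2 and Zfp36) against 1.81%, and the core ACGTG or GCGTG, to which hypoxia-inducible factors bind (GCGTG is also the core bound by ARNT with the aryl hydrocarbon receptor), in 19 of 24 immediate early and 5 of 8 heat shock genes against 46.7% of all genes. Shown with TGACG in capitals on either strand are the windows of the orphan receptor genes Nr4a3 (chr4:48045055-48045354, plus strand) and Nr4a2 (chr2:57123954-57124253, minus strand), which have 4 such sites each, and with the full site in capitals that of Btg2 (chr1:134079106-134079405, minus strand), 3 genes whose arrays did not overlap between the genotypes. A match describes the letters of the window and does not show that a factor binds there.
Nr4a3: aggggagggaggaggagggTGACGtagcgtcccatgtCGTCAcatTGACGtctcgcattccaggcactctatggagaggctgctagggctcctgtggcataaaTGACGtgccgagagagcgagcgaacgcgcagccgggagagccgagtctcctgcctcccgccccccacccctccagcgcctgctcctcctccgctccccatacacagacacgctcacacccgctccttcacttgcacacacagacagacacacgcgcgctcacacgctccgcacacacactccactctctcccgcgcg
Nr4a2: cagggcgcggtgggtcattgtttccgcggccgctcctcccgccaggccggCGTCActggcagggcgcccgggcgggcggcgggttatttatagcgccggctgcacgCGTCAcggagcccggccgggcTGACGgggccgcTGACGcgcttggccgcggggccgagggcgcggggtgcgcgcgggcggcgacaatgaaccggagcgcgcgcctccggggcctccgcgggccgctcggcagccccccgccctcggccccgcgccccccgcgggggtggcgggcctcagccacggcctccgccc
Btg2: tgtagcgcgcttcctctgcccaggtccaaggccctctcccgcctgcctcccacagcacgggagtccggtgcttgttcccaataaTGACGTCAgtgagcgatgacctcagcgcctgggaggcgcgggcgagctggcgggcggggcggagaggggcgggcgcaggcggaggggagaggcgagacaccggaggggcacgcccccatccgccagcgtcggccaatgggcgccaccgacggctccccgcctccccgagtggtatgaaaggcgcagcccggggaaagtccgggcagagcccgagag

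Arnt itself was lower in LysMCre;Arntfl/fl macrophages on every array, with log2 values of 9.54, 9.44, 9.36, 9.31 and 9.31 against 8.77, 8.60, 8.84 and 8.70 (log2 fold change -0.66 ± 0.09 SE, limma adjusted p = 0.0214); where its probes lie relative to the deleted exon is not given in the sources used here. Of the markers of the sort, Adgre1 (F4/80) was at 10.87 to 11.37 against 10.82 to 11.12 in LysMCre against LysMCre;Arntfl/fl, and Itgam (CD11b) at 11.44 to 11.997 against 12.13 to 12.42, higher in LysMCre;Arntfl/fl without overlap. Csf1r was at 12.02 to 12.38 against 11.91 to 12.24 and Cd68 at 11.45 to 11.81 against 11.69 to 12.02, while Cx3cr1, a gene of resident macrophages, was at 9.42 to 10.08 against 8.35 to 9.21, lower without overlap. The macrophage list given further below holds genes that went in both directions. Pairs of arrays correlated between 0.976 and 0.990 over all probe sets, and LysMCre;Arntfl/fl replicate 2 had the lowest mean correlation with the other arrays (0.981, against 0.982 to 0.985 for the rest). This array also stood apart on the members: it was the lowest of the 9 on 30 of the 38 genes, and on 15.0% of all probe sets with 1 symbol. Without it the log2 fold change moved by more than 1.5 times for 17 of the 38 members, toward 0 for 13 of them and away from it for 4, and these members are given below with and without it. In RNA of a sorted population, fewer cells that express a gene and less RNA per cell cannot be told apart.

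No member passed the limma test, and nearly all had a lower mean in LysMCre;Arntfl/fl than in LysMCre macrophages. A call asked for an adjusted p under 0.05 from limma together with a change of more than 1.5-fold, and 0.294% of all 34365 probe sets met them in either direction. At the same limits a SAM-type d score, modelled on the test the paper used for these arrays, called Fosb and Nr4a3 (below). Among the immediate early genes, 26 of 28 had a negative log2 fold change, with a median of -0.26, and among the heat shock genes 10 of 10, with a median of -0.55. Over all probe sets with 1 symbol 48.1% were negative and the median was 0.01. The smallest adjusted p of each class belonged to Fosb (0.0652) and to Hspd1 (0.109).

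At an unadjusted p below 0.05, 15 of the 28 immediate early and 8 of the 10 heat shock genes were lower and 0 were higher, where 5.79% of all probe sets were lower and 5.72% higher. The arrays of the genotypes did not overlap, with LysMCre;Arntfl/fl the lower, for 8 immediate early genes (Fosb, Jund, Egr1, Nr4a2, Nr4a3, Zfp36, Klf4 and Btg2) and 5 heat shock genes (Hspa1b, Hspa8, Hsph1, Hspd1 and Bag3). Of all probe sets 2.22% did not overlap in this direction and 2.52% in the other, which no member did. These shares of members are above the backgrounds, but the members of a class share variation between arrays and were chosen with results of these arrays known, so the counts are descriptions. Without LysMCre;Arntfl/fl replicate 2 the medians were -0.21 for the immediate early and -0.34 for the heat shock genes, and 11 and 5 genes were at an unadjusted p below 0.05. Without it 8 and 5 genes did not overlap, against 3.40% of all probe sets. The genes past a fold change of 1.5 over all arrays fell short of it without this array. Their log2 fold changes were then -0.48 for Fosb, -0.48 for Nr4a3, -0.47 for Csrnp1, -0.43 for Hspa1b, -0.36 for Hsph1, -0.55 for Hspd1 and -0.44 for Dnajb1.

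**Figure D1:**
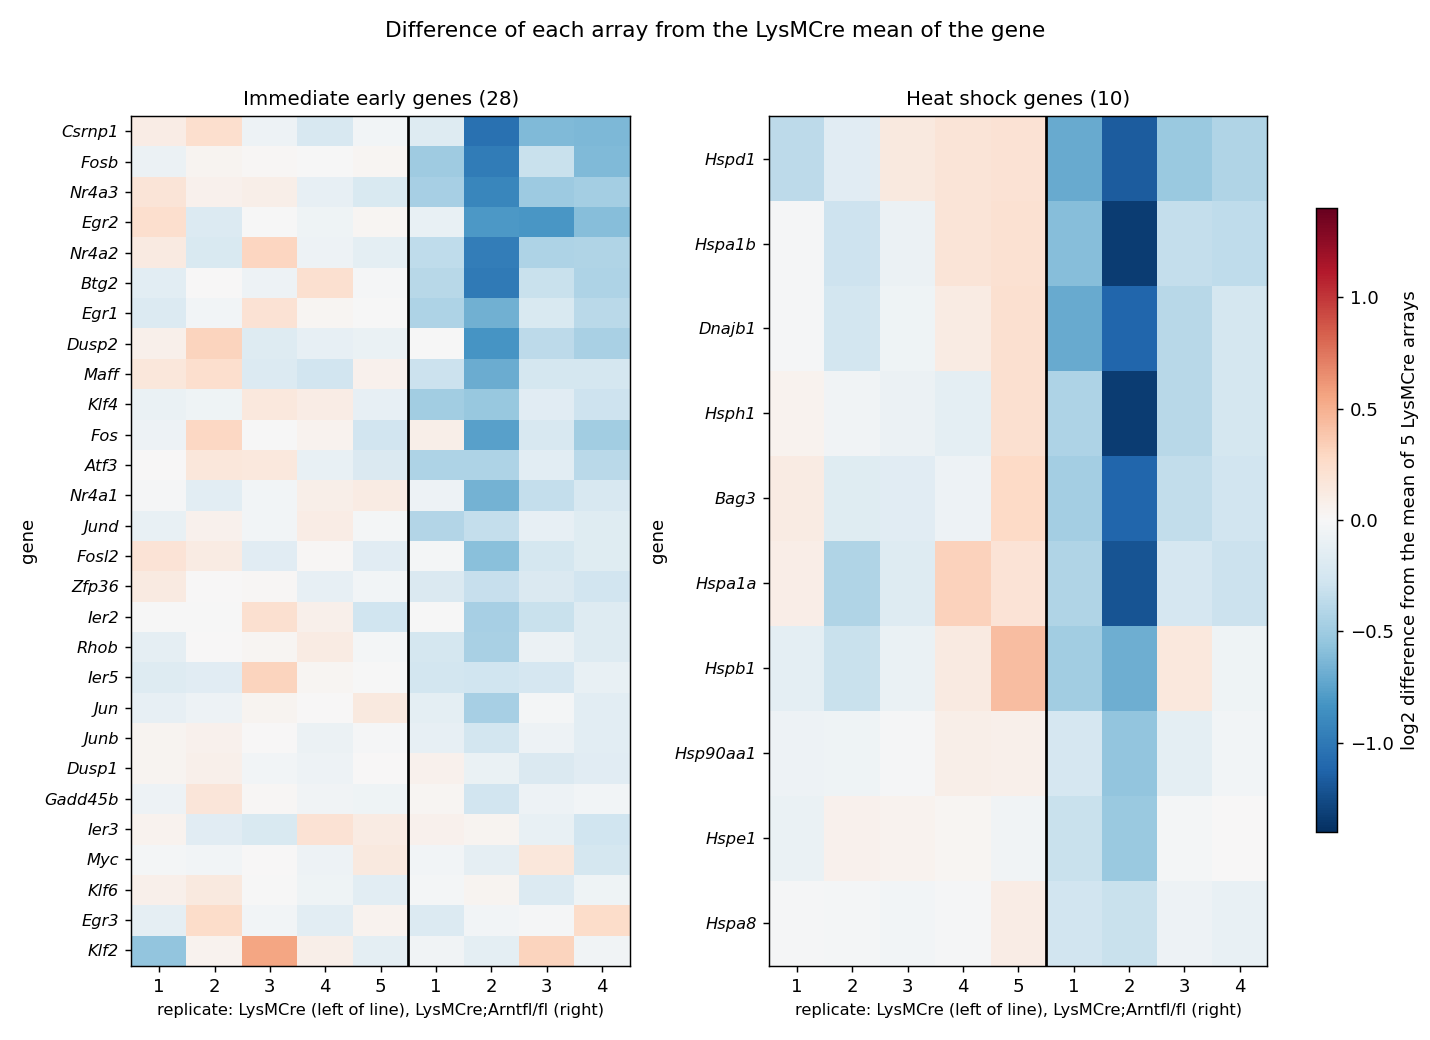
Difference of each array (columns) from the mean of the 5 LysMCre arrays for each of the 28 immediate early genes (left) and 10 heat shock genes (right), on the log2 scale, with genes ordered by their log2 fold change. Blue cells fill most of the 4 LysMCre;Arntfl/fl columns, are darkest in replicate 2, and fade toward the bottom of each panel, where the genes with the smallest differences stand.

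**Figure D2:**
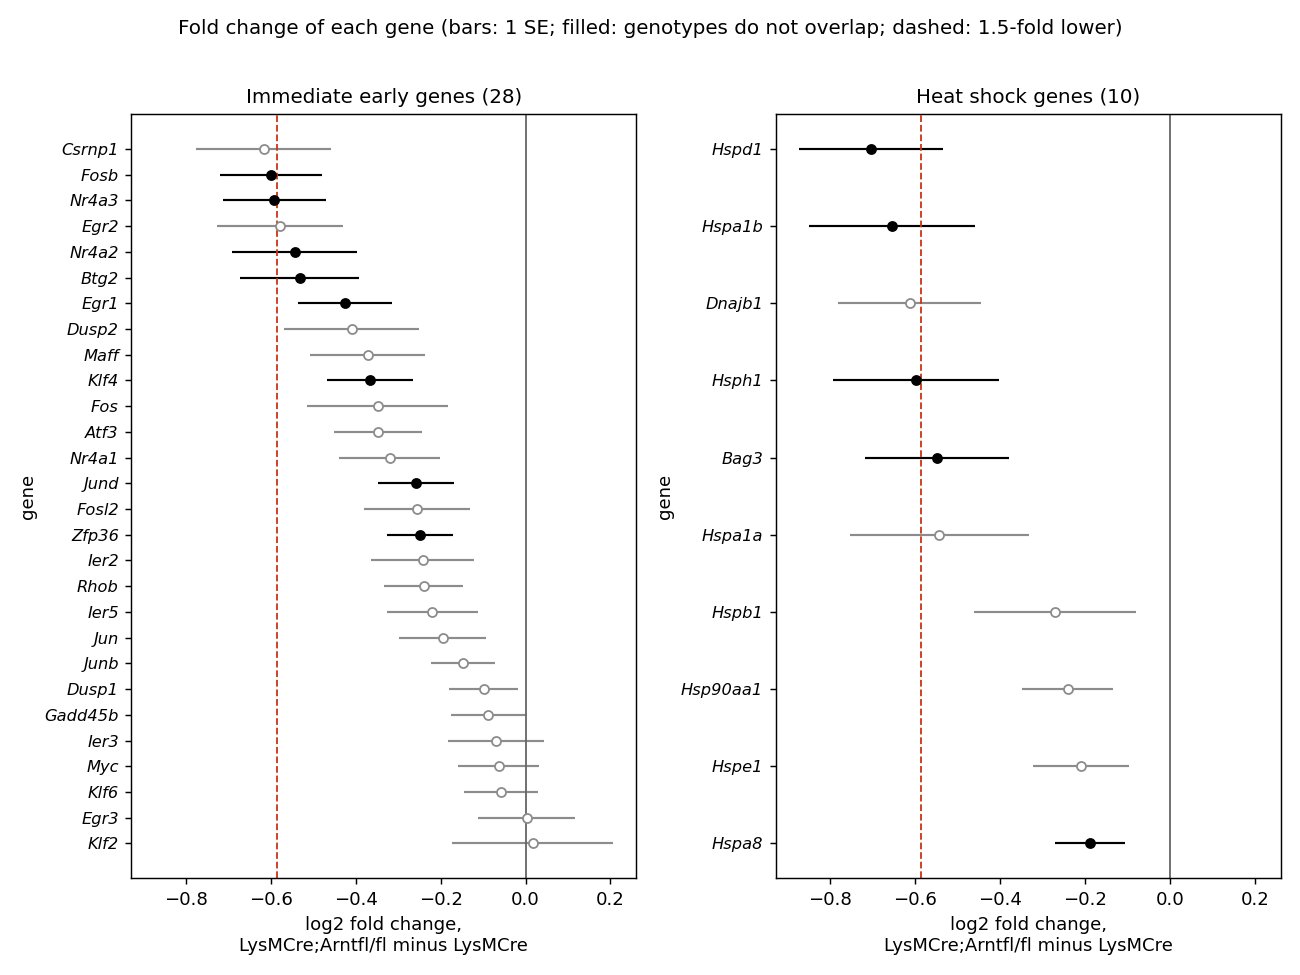
Log2 fold change of each gene (LysMCre;Arntfl/fl minus LysMCre, point) with 1 standard error (bar) from limma. Filled points mark the 13 genes whose arrays did not overlap between the genotypes. The dashed line stands at a fold change of 1.5 toward lower values, which 3 immediate early and 4 heat shock genes passed. Without LysMCre;Arntfl/fl replicate 2 (not drawn) these genes fell short of the line.

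Fos and Jun proteins pair to form the transcription factor AP-1. Fosb had the smallest adjusted p of all members: its log2 values were 12.42, 12.54, 12.51, 12.50 and 12.52 on the LysMCre arrays and 12.002, 11.52, 12.18 and 11.88 on the LysMCre;Arntfl/fl arrays. The LysMCre arrays lay within 0.12 of each other and all 4 LysMCre;Arntfl/fl arrays were below them (log2 fold change -0.60 ± 0.12 SE, limma adjusted p = 0.0652). With the SAM-type d score in place of limma, Fosb and Nr4a3 were called, as were 0.48% of all probe sets as lower and 0.882% in either direction. Both were also called by limma at an adjusted p below 0.10 (with 0.882% of all probe sets) and over probe sets above the median level (1.19% of them called), and Fosb over probe sets with 1 symbol (0.616% called). Fos, the founding member of the family, read 9.64, 9.99, 9.70, 9.75 and 9.44 on the LysMCre arrays and 9.79, 8.94, 9.48 and 9.22 on the LysMCre;Arntfl/fl arrays. Replicates 2 and 4 of LysMCre;Arntfl/fl were below all LysMCre arrays while replicate 1 was among the highest, and the genotypes overlapped (log2 fold change -0.35 ± 0.17 SE, limma adjusted p = 0.464). Without replicate 2 of LysMCre;Arntfl/fl the log2 fold change of Fos was -0.21.

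Jun, the usual partner of FOS, read 12.11, 12.15, 12.26, 12.23 and 12.36 on the LysMCre arrays and 12.09, 11.76, 12.20 and 12.07 on the LysMCre;Arntfl/fl arrays, and its genotypes overlapped through replicate 3 of LysMCre;Arntfl/fl (log2 fold change -0.20 ± 0.10 SE, limma adjusted p = 0.518, and a log2 fold change of -0.11 without LysMCre;Arntfl/fl replicate 2). Jund, a JUN relative that is more steadily expressed, read 8.44, 8.60, 8.51, 8.65 and 8.52 on the LysMCre arrays and 8.13, 8.21, 8.43 and 8.37 on the LysMCre;Arntfl/fl arrays, with all 4 LysMCre;Arntfl/fl arrays below the lowest LysMCre array (log2 fold change -0.26). A second, dimmer probe set of Jund had a log2 fold change of -0.19 with an unadjusted p of 0.333. Fosl2 and Junb had log2 fold changes of -0.26 and -0.15, each with 3 of 4 LysMCre;Arntfl/fl arrays below all LysMCre arrays, and that of Fosl2 was -0.15 without LysMCre;Arntfl/fl replicate 2. Atf3, a CREB-related repressor of inflammatory genes, read 10.44, 10.59, 10.58, 10.33 and 10.23 on the LysMCre arrays and 10.004, 10.001, 10.29 and 10.05 on the LysMCre;Arntfl/fl arrays. LysMCre;Arntfl/fl replicate 3 was the array that reached the LysMCre range of Atf3 (log2 fold change -0.35). Maff, a small MAF protein, read 8.75, 8.82, 8.40, 8.32 and 8.64 on the LysMCre arrays and 8.28, 7.89, 8.34 and 8.33 on the LysMCre;Arntfl/fl arrays, so that replicates 3 and 4 of LysMCre;Arntfl/fl lay at the low end of the LysMCre range (log2 fold change -0.37).

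The EGR zinc finger factors differed among themselves. Egr1, a well known target of SRF, read 9.20, 9.35, 9.59, 9.42 and 9.37 on the LysMCre arrays and 8.95, 8.71, 9.17 and 9.003 on the LysMCre;Arntfl/fl arrays, without overlap (log2 fold change -0.42 ± 0.11 SE, limma adjusted p = 0.140). Egr2, which in macrophages takes part in alternative activation, read 9.53, 9.10, 9.28, 9.23 and 9.31 on the LysMCre arrays and 9.19, 8.49, 8.48 and 8.69 on the LysMCre;Arntfl/fl arrays. LysMCre;Arntfl/fl replicate 1 lay within the LysMCre range and the other 3 arrays were below it (log2 fold change -0.58 ± 0.15 SE, limma adjusted p = 0.137). Without that replicate Egr2 passed the test, with a log2 fold change of -0.74 and an adjusted p of 0.0328, in a fit that called 0.375% of all probe sets. Egr3 ranged from 6.64 to 7.04 in LysMCre and from 6.59 to 7.04 in LysMCre;Arntfl/fl macrophages, with means of 6.78 and 6.79.

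The NR4A orphan nuclear receptors, which restrain inflammatory gene expression in macrophages, were all 3 lower on the mean. Nr4a3 had the second smallest adjusted p of the members and read 10.22, 10.10, 10.12, 9.92 and 9.83 on the LysMCre arrays and 9.58, 9.12, 9.53 and 9.56 on the LysMCre;Arntfl/fl arrays. All LysMCre;Arntfl/fl arrays were below the LysMCre arrays, and replicate 2 lay 0.41 below the next (log2 fold change -0.59 ± 0.12 SE, limma adjusted p = 0.0700). Nr4a2 read 9.13, 8.80, 9.31, 8.94 and 8.87 on the LysMCre arrays and 8.66, 8.05, 8.58 and 8.59 on the LysMCre;Arntfl/fl arrays, with the same pattern and a log2 fold change of -0.54. Nr4a1 (Nur77) read 11.61, 11.47, 11.59, 11.71 and 11.74 on the LysMCre arrays and 11.56, 10.97, 11.29 and 11.40 on the LysMCre;Arntfl/fl arrays, where LysMCre;Arntfl/fl replicate 1 reached the LysMCre arrays (log2 fold change -0.32, and -0.21 without LysMCre;Arntfl/fl replicate 2).

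**Figure D3:**
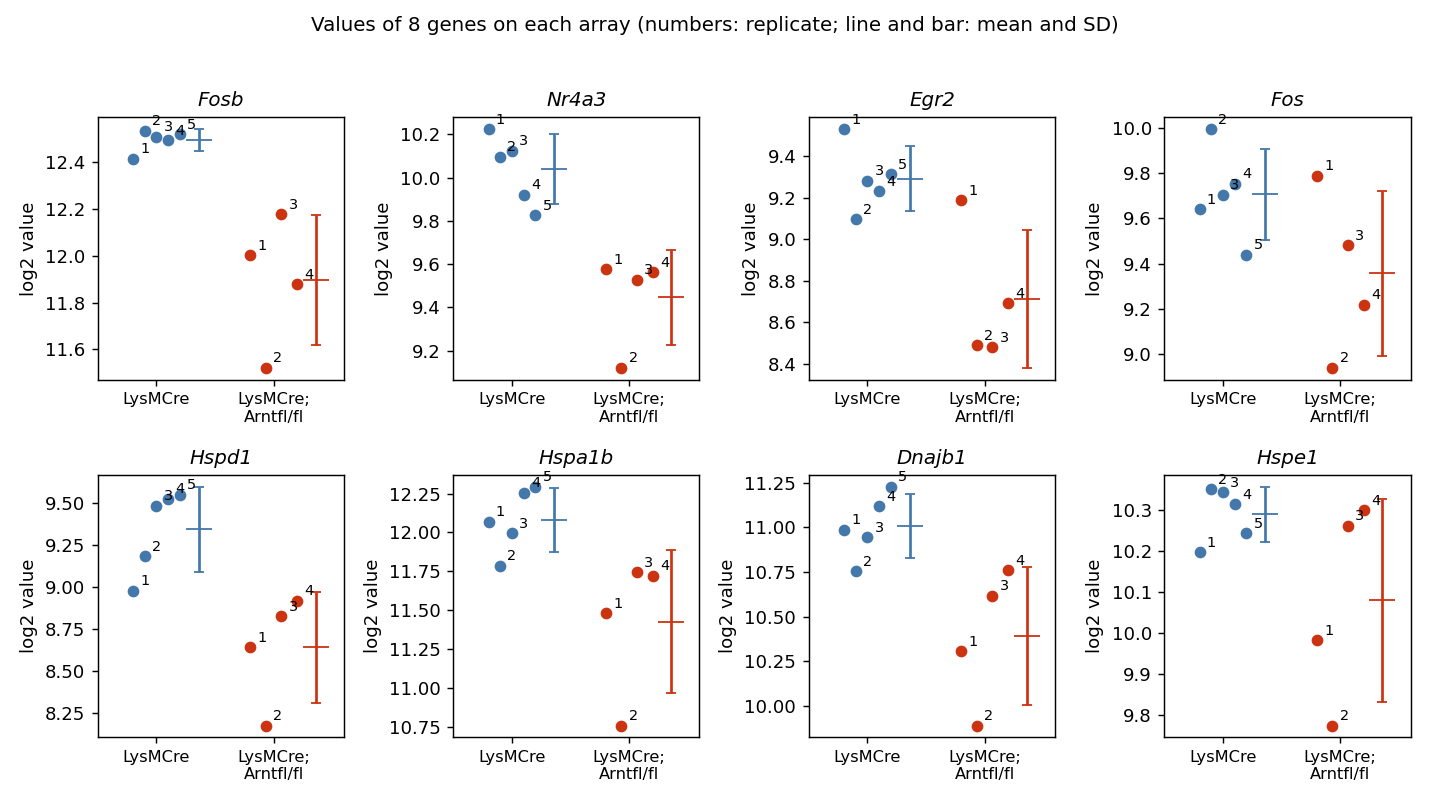
Log2 values of Fosb, Nr4a3, Egr2 and Fos (top) and Hspd1, Hspa1b, Dnajb1 and Hspe1 (bottom) on each array, with the replicate number beside the point, and the mean and SD of each genotype. The genotypes do not overlap for Fosb, Nr4a3, Hspd1 and Hspa1b, and LysMCre;Arntfl/fl replicate 2 is the lowest array in every panel but that of Egr2, where replicate 3 lies 0.01 below it.

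Among the Krüppel-like factors, Klf4, which takes part in the maturation of monocytes, read 9.68, 9.72, 9.92, 9.88 and 9.66 on the LysMCre arrays and 9.29, 9.25, 9.61 and 9.48 on the LysMCre;Arntfl/fl arrays, without overlap (log2 fold change -0.37). Klf2, a factor that keeps macrophages quiescent, read 7.46, 8.06, 8.57, 8.10 and 7.88 on the LysMCre arrays and 7.96, 7.87, 8.32 and 7.96 on the LysMCre;Arntfl/fl arrays. It varied more within the LysMCre group than any other immediate early gene, with replicate 1 the lowest and replicate 3 the highest of all arrays, and its genotype means were 8.01 and 8.03 (log2 fold change 0.02 ± 0.19 SE, limma adjusted p = 0.988). Klf6 had a log2 fold change of -0.06.

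The negative regulators of the early response ranged in log2 fold change from -0.53 (Btg2) to -0.10 (Dusp1). Zfp36 (tristetraprolin), which binds AU-rich RNAs such as that of Tnf and speeds their decay, read 12.48, 12.36, 12.37, 12.24 and 12.32 on the LysMCre arrays and 12.15, 12.03, 12.15 and 12.09 on the LysMCre;Arntfl/fl arrays, a small difference without overlap (log2 fold change -0.25 ± 0.08 SE, limma adjusted p = 0.219). Dusp2, a phosphatase of MAP kinases in the nucleus, read 11.56, 11.80, 11.31, 11.38 and 11.40 on the LysMCre arrays and 11.49, 10.66, 11.13 and 11.04 on the LysMCre;Arntfl/fl arrays, with LysMCre;Arntfl/fl replicate 1 inside the LysMCre range and the others below it (log2 fold change -0.41, and -0.27 without LysMCre;Arntfl/fl replicate 2). Dusp1, the best known phosphatase of this kind, had a log2 fold change of -0.10 with overlap. Btg2, an antiproliferative gene, read 10.52, 10.67, 10.60, 10.89 and 10.65 on the LysMCre arrays and 10.27, 9.67, 10.35 and 10.24 on the LysMCre;Arntfl/fl arrays, without overlap (log2 fold change -0.53 ± 0.14 SE, limma adjusted p = 0.144). Ier2, Ier3 and Ier5, named as immediate early response genes, had log2 fold changes of -0.24, -0.07 and -0.22, all with overlap, and that of Ier5 was -0.14 without LysMCre replicate 3.

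The immediate early gene with the lowest log2 fold change was Csrnp1, a nuclear protein first found as a target of AXIN. It read 11.01, 11.15, 10.84, 10.68 and 10.88 on the LysMCre arrays and 10.73, 9.87, 10.30 and 10.28 on the LysMCre;Arntfl/fl arrays, and replicate 1 of LysMCre;Arntfl/fl lay above the lowest LysMCre array (log2 fold change -0.62 ± 0.16 SE, limma adjusted p = 0.137). Rhob, a small GTPase of endosomes, read 10.08, 10.20, 10.23, 10.32 and 10.17 on the LysMCre arrays and 9.95, 9.75, 10.11 and 10.02 on the LysMCre;Arntfl/fl arrays (log2 fold change -0.24), with overlap through replicate 3 of LysMCre;Arntfl/fl. Myc and Gadd45b, a growth factor response gene and a stress response gene, had log2 fold changes of -0.06 and -0.09. The 10 immediate early genes given here without their arrays (Fosl2, Junb, Egr3, Ier2, Ier3, Ier5, Dusp1, Klf6, Myc and Gadd45b) ranged from -0.26 to 0.00, and none of them was past an unadjusted p of 0.05. For the members within 0.10 of 0 over all arrays, leaving out LysMCre;Arntfl/fl replicate 2 gave other log2 fold changes. They became 0.02 for Egr3, 0.07 for Klf2, -0.09 for Klf6, -0.11 for Ier3, -0.03 for Gadd45b, -0.04 for Myc and -0.10 for Dusp1. The symbol of Gadd45a stands on 1 probe set together with a non-coding gene, so it was not counted. That probe set had the higher mean in LysMCre;Arntfl/fl (log2 fold change 0.70, adjusted p = 0.244 from limma).

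The heat shock genes had the lower median log2 fold change and the higher median SD of both classes, and neither difference was tested. The HSP70 chaperones bind exposed hydrophobic stretches of unfolded proteins, and Hspa1a and Hspa1b encode the inducible forms. Hspa1b read 12.07, 11.79, 11.995, 12.26 and 12.29 on the LysMCre arrays and 11.48, 10.76, 11.74 and 11.72 on the LysMCre;Arntfl/fl arrays, without overlap (log2 fold change -0.65 ± 0.20 SE, limma adjusted p = 0.199). Without LysMCre;Arntfl/fl replicate 2 the log2 fold change of Hspa1b was -0.43 and that of Hspa1a, the gene next described, was -0.32. Hspa1a read 13.36, 12.85, 13.08, 13.58 and 13.45 on the LysMCre arrays and 12.84, 12.05, 13.03 and 12.96 on the LysMCre;Arntfl/fl arrays. Replicates 1 and 2 of LysMCre;Arntfl/fl were below all LysMCre arrays and the other pair was not (log2 fold change -0.54 ± 0.21 SE, limma adjusted p = 0.340). The residuals of these genes around the genotype means correlated at 0.97 over the 9 arrays and at 0.92 without LysMCre;Arntfl/fl replicate 2, and a probe set that carries both symbols had a log2 fold change of -0.50. Hspa8, the constitutive HSP70 of the cytosol, read 12.69, 12.68, 12.67, 12.69 and 12.81 on the LysMCre arrays and 12.44, 12.40, 12.64 and 12.60 on the LysMCre;Arntfl/fl arrays, a small difference without overlap (log2 fold change -0.19). Its 3 dimmer probe sets had log2 fold changes of -0.16, -0.44 and -0.45.

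The partners of HSP70 among the members (Dnajb1, Hsph1 and Bag3) had log2 fold changes from -0.61 to -0.55. Dnajb1 (HSP40), which delivers substrates to HSP70, read 10.99, 10.75, 10.94, 11.12 and 11.23 on the LysMCre arrays and 10.31, 9.89, 10.62 and 10.76 on the LysMCre;Arntfl/fl arrays. All LysMCre;Arntfl/fl arrays except replicate 4, which lay 0.01 above LysMCre replicate 2, were below the LysMCre arrays (log2 fold change -0.61 ± 0.17 SE, limma adjusted p = 0.159). Hsph1 (HSP110), a nucleotide exchange factor of HSP70, read 11.98, 11.87, 11.84, 11.79 and 12.15 on the LysMCre arrays and 11.50, 10.60, 11.53 and 11.68 on the LysMCre;Arntfl/fl arrays, without overlap (log2 fold change -0.60 ± 0.20 SE, limma adjusted p = 0.240). Its replicate 2 of LysMCre;Arntfl/fl was 0.90 below the next array, and without it the log2 fold change of Hsph1 was -0.36. Bag3, which links HSP70 to autophagy, read 8.89, 8.60, 8.62, 8.71 and 9.05 on the LysMCre arrays and 8.30, 7.67, 8.42 and 8.50 on the LysMCre;Arntfl/fl arrays, without overlap (log2 fold change -0.55, and -0.36 without the same array).

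Hspd1 (HSP60) and Hspe1 (HSP10) form the folding chamber of mitochondria and are read in opposite directions from the shared stretch printed above. Hspd1 read 8.98, 9.18, 9.48, 9.53 and 9.55 on the LysMCre arrays and 8.64, 8.17, 8.82 and 8.92 on the LysMCre;Arntfl/fl arrays, without overlap, and had the lowest log2 fold change of all members (log2 fold change -0.70 ± 0.17 SE, limma adjusted p = 0.109). Hspe1 read 10.20, 10.35, 10.34, 10.31 and 10.24 on the LysMCre arrays and 9.98, 9.77, 10.26 and 10.30 on the LysMCre;Arntfl/fl arrays. Its replicates 1 and 2 of LysMCre;Arntfl/fl were below the LysMCre arrays and the other pair within them (log2 fold change -0.21 ± 0.11 SE, limma adjusted p = 0.533), and without replicate 2 the log2 fold change was -0.11. Around the genotype means the pair correlated at 0.77 over the 9 arrays and at 0.49 without LysMCre;Arntfl/fl replicate 2.

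Hsp90aa1, the inducible cytosolic HSP90, read 9.90, 9.92, 9.95, 10.06 and 10.04 on the LysMCre arrays and 9.74, 9.42, 9.84 and 9.93 on the LysMCre;Arntfl/fl arrays, with replicate 4 of LysMCre;Arntfl/fl inside the LysMCre range (log2 fold change -0.24, and -0.14 without replicate 2). Hspb1 (HSP27), a small heat shock protein that holds unfolded proteins without ATP, read 8.67, 8.49, 8.71, 8.94 and 9.24 on the LysMCre arrays and 8.32, 8.13, 8.96 and 8.75 on the LysMCre;Arntfl/fl arrays. Its genotypes overlapped widely and a second, dimmer probe set had a log2 fold change of -0.22 beside the -0.27 of the first. The latter was -0.13 without replicate 2 and -0.41 without replicate 3 of LysMCre;Arntfl/fl, and -0.16 without LysMCre replicate 5.

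The spread between arrays is described by class, with no test. The SD around the genotype means had a median of 0.172 on the log2 scale for the immediate early and 0.289 for the heat shock genes, against 0.170 over all probe sets with 1 symbol. Hspa1a, Hspa1b, Hsph1 and Hspb1 stood at the 93.4, 91.6, 91.6 and 90.9 percentile of this SD, and Klf2 at the 90.8, while Junb, Zfp36, Dusp1 and Hspa8 stood at the 1.56, 3.33, 5.59 and 6.61 percentile. The SD was larger in LysMCre;Arntfl/fl than in LysMCre for 21 of 28 immediate early and 10 of 10 heat shock genes, against 44.6% of all probe sets. Without LysMCre;Arntfl/fl replicate 2 it was larger for 11 of 28 (39.3%) and 5 of 10 (50%), against 37.5% of all probe sets. That array was singled out as the lowest on most members, so leaving it out tends to lower these counts. Whether the larger spread rested on that array alone was not tested.

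**Figure D4:**
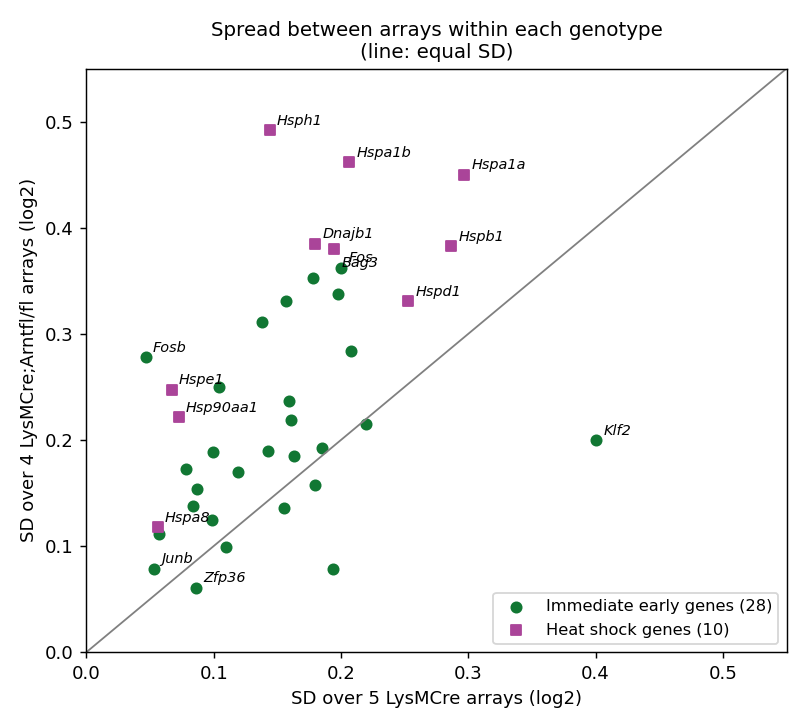
SD of each gene over the 5 LysMCre arrays (x axis) and the 4 LysMCre;Arntfl/fl arrays (y axis), log2 scale, with circles for immediate early and squares for heat shock genes and a line of equal SD. All 10 squares lie above the line, and Klf2 lies farthest below it.

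Heat shock genes varied together across the arrays. After the genotype means were taken out, pairs of heat shock genes had a mean correlation of 0.81 over the 9 arrays, pairs of immediate early genes 0.25, and pairs across the classes 0.29, against 0.00 for all probe sets with 1 symbol. Without LysMCre;Arntfl/fl replicate 2 the values were 0.57, 0.03 and -0.16. The points share RNA, amplification and normalization, and the correlations are descriptions. Without that array, then, the heat shock genes still varied together, while the mean for the immediate early genes was near 0 and that across the classes was negative.

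The mean of the 28 immediate early genes on each array was 10.33, 10.39, 10.39, 10.34 and 10.30 on the LysMCre arrays and 10.17, 9.85, 10.13 and 10.08 on the LysMCre;Arntfl/fl arrays. The 5 LysMCre arrays lay within 0.09 of each other, and all LysMCre;Arntfl/fl arrays were below them. The mean of the 10 heat shock genes was 10.77, 10.65, 10.76, 10.90 and 11.01 on the LysMCre arrays and 10.35, 9.89, 10.59 and 10.61 on the LysMCre;Arntfl/fl arrays. Here too the genotypes did not overlap, but LysMCre replicate 2 and LysMCre;Arntfl/fl replicate 4 came within 0.04 of each other. The order within LysMCre differed between the classes, with replicate 5 the highest for heat shock and the lowest for immediate early genes. Against the LysMCre mean of each gene, the median difference of the immediate early genes was -0.16, -0.47, -0.21 and -0.25 on replicates 1 to 4 of LysMCre;Arntfl/fl, and that of the heat shock genes -0.45, -1.11, -0.29 and -0.25.

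**Figure D5:**
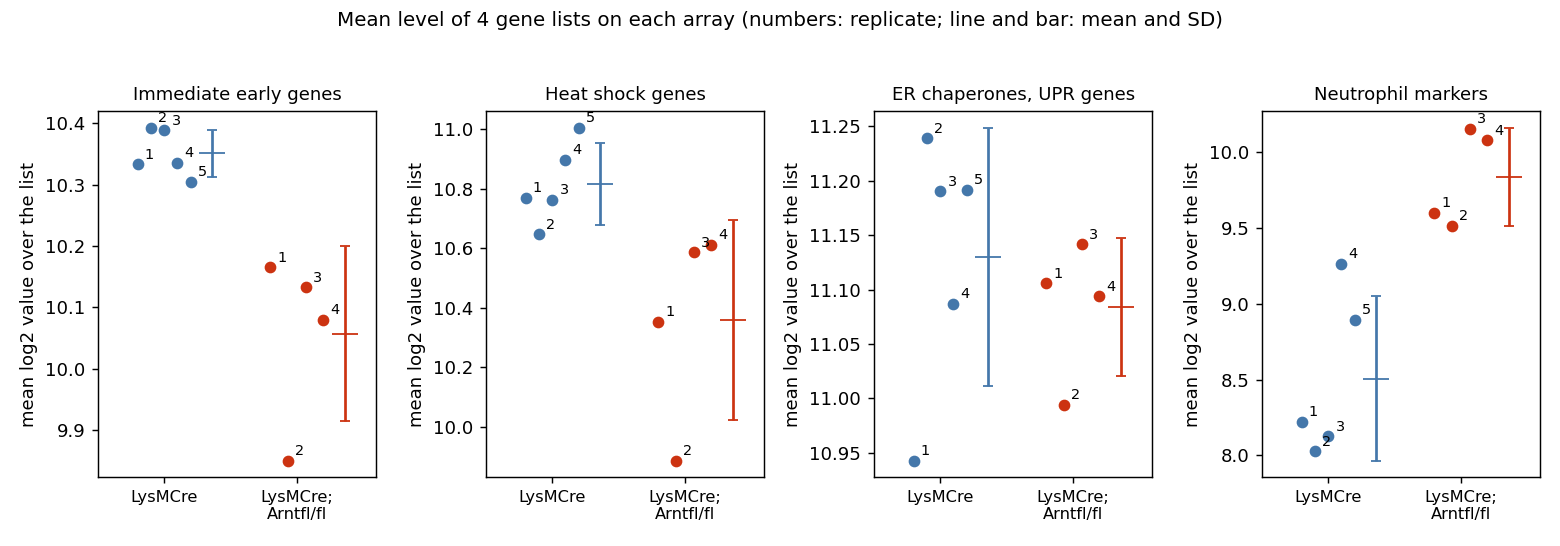
Mean log2 value on each array over the immediate early genes, the heat shock genes, the chaperones and response genes of the endoplasmic reticulum (ER, with UPR for unfolded protein response) and the neutrophil marker genes, with the replicate number beside the point and the mean and SD of each genotype. The genotypes do not overlap for the first 2 lists, which are lower in LysMCre;Arntfl/fl, nor for the neutrophil markers, which are higher, and they overlap for the ER list.

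Other genes of the early response had a median difference nearer to 0. Of 45 measured early response genes outside the member list, 34 had a negative log2 fold change (median -0.13) and 0 were called. At an unadjusted p below 0.05, 14 were lower and 0 higher, against 5.79% and 5.72% of all probe sets. For 7 the genotypes did not overlap with LysMCre;Arntfl/fl the lower, against 2.22%. Both shares of lower genes were above these backgrounds, as for the members, and were not tested. The genes with the smallest p were the interferon regulatory factor gene Irf1 (log2 fold change -0.51, adjusted p = 0.0696 from limma), the clock gene Per1 (-0.45, adjusted p = 0.0978 from limma), the ERK phosphatase gene Dusp5 (-0.30) and Ifrd1 (-0.30). None of these 4 overlapped between the genotypes. Of 17 measured kinases and factors that act upstream of immediate early genes, 10 were above and 7 below 0 on the log2 scale (median 0.08) and 0 were called. At an unadjusted p below 0.05, 2 were higher, against 5.72% of all probe sets. The 2 were Mrtfb, an SRF coactivator (0.31), and the kinase gene Rps6ka5 (0.25), and next came Srf itself (0.18) and Mrtfa (-0.29).

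Chaperones outside the heat shock list had a median difference nearer to 0. Of 38 measured chaperones and cochaperones, nearly all of the cytosol, nucleus or mitochondria, 26 had a negative log2 fold change (median -0.07) and 0 were called. At an unadjusted p below 0.05, 6 were lower and 2 higher, against 5.79% and 5.72% of all probe sets. Without overlap, 3 were lower and 1 higher in LysMCre;Arntfl/fl, against 2.22% and 2.52%. Fkbp5, an HSP90 cochaperone induced by glucocorticoids, was brighter on every LysMCre;Arntfl/fl array (log2 fold change 0.49, adjusted p = 0.0937 from limma). The other genes with the smallest p were Chordc1 (-0.43, without overlap), Cryab (-0.43) and the mitochondrial Dnaja3 (0.44). Serpinh1 (HSP47), a collagen chaperone of the endoplasmic reticulum (ER) that this list also holds, named after its value was seen, was one of the 6 (-0.48). The heat shock factor gene Hsf2, Hsbp1, whose protein binds HSF1, and Hspbp1 and Bag1, exchange factors of HSP70, had log2 fold changes from -0.06 to 0.00, none past an unadjusted p of 0.05, and Hsf1 had no probe set of its own. In a separate list of 19 chaperones and response genes of the ER, 14 had a negative log2 fold change (median -0.06) and none was past an unadjusted p of 0.05. The smallest p values among them were those of Hsp90b1 (-0.15), Xbp1 (-0.21), Edem1 (-0.13) and Herpud1 (-0.11).

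Neutrophil marker genes had higher means in LysMCre;Arntfl/fl. All 16 measured neutrophil genes had a positive log2 fold change (median 1.36). At an unadjusted p below 0.05, 13 were higher, and 6 did not overlap, against 5.72% and 2.52% of all probe sets in this direction. Of the 16, 1 was called, Ngp (log2 fold change 3.45 ± 0.51 SE, limma adjusted p = 0.0330), against 0.294% of all probe sets. Mmp9 (1.36), Lcn2 (2.19) and Mmp8 (2.09) followed. The mean of the neutrophil genes was 8.22, 8.03, 8.13, 9.26 and 8.90 on the LysMCre arrays and 9.60, 9.51, 10.15 and 10.08 on the LysMCre;Arntfl/fl arrays. Within LysMCre, replicates 4 and 5 had the highest neutrophil and the highest heat shock means, while the highest immediate early means were those of replicates 2 and 3, which had the lowest neutrophil means. Within LysMCre;Arntfl/fl replicates 3 and 4 had the highest neutrophil and heat shock means, and replicate 1 the highest immediate early mean. With the neutrophil mean as a covariate the median log2 fold change of the heat shock genes was -0.998 and that of the immediate early genes -0.27, 9 and 8 genes were at an unadjusted p below 0.05, and 0 probe sets of 34365 were called. The neutrophil means of the genotypes did not overlap, so covariate and genotype can be told apart only in part.

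The 12 macrophage genes had a median log2 fold change of -0.21, which was negative for 8 and positive for 4 of them. Their mean was 10.55 to 11.002 on the LysMCre arrays and 10.39 to 10.80 on the LysMCre;Arntfl/fl arrays. Cx3cr1 (-0.83), C1qa (-0.56), C1qc (-0.52) and Itgam (0.44) were at the smallest p. The largest positive log2 fold change was that of Cd163 (0.62), whose genotypes overlapped. Those of Cd68 (0.17) and Mertk (0.01) were also positive. The 7 monocyte genes had a median of 0.29 and a mean of 8.84 to 9.80 on the LysMCre arrays and 9.72 to 10.02 on the LysMCre;Arntfl/fl arrays, with Chil3 (2.25), Ccr2 (-0.52), F13a1 (0.86) and Vcan (0.45) at the smallest p. The 12 epithelial genes had a median of 0.30 and a mean that ranged widely, 7.40 to 10.07 on the LysMCre arrays and 8.49 to 9.28 on the LysMCre;Arntfl/fl arrays, with Muc2 (-1.44), Car1 (1.49), Krt19 (0.74) and Krt18 (-0.59) at the smallest p. In LysMCre the mean was highest on replicate 4 and lowest on replicate 2, which were the second highest and the lowest of the group for heat shock genes. The T cell, B cell, and fibroblast and endothelial lists had medians of -0.02, -0.19 and -0.16, and means that overlapped between the genotypes. Within the last, the endothelial genes Kdr (0.74), Cdh5 (0.79) and Vwf (0.57) had positive and the collagen gene Col1a1 (-0.57) a negative log2 fold change, all 4 at an unadjusted p below 0.05 and with overlap. In the T cell list Cd4 (-0.59) was below that p and the other 4 genes were not, and in the B cell list none was, with Jchain (-0.19) at the smallest p. The part of these cells in the lower values of the members was not tested.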

How the data were processed

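Mouse Gene 2.0 arrays of 9 mice, 1 array each, were used. The deposited values are on the log2 scale: the authors ran Expression Console with default settings and robust multiarray averaging (RMA), which corrects background and quantile-normalizes, and the submitters' processing notes name Partek 6.6. Which annotation release or filter was applied is not stated in the sources read here. RMA removes differences in overall brightness, so all values are relative within an array set, and the number of arrays limits their precision.

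Gene symbols came from the platform annotation, and 4 listed genes were matched through a synonym. The genotypes were set against each other in limma 3.58.1 (R 4.3.3), with lmFit, eBayes and genotype as the only term. P values were adjusted by Benjamini-Hochberg across the 34365 probe sets, and a call needed both an adjusted p under 0.05 and a change of more than 1.5-fold. This and a SAM-type d score (100 permutations) were tested on simulated data. Lists were described by counts and medians, with no test over a list. Members and lists were chosen with earlier results of these data known. Values on every array are given for members with an unadjusted p below 0.05, a fold change above 1.5, no overlap between genotypes or an SD among the 5 largest of their class, and for Fos, Jun, Egr1, Hspa1a, Hspa1b and Dnajb1. Of other lists up to 4 genes with the smallest p are named. Hspe1, Adgre1, Csf1r, Cd68, Serpinh1, Hspa1l, Ahsa1, Dnajb6, Cd163 and Mertk were added after their values were seen. The settings varied were the d score, array weights, robust variances, a variance trend, the methods' t-test, other thresholds, fewer probe sets, median centring, quantile normalization, the mean of a gene's probe sets, the replicate number as a block, neutrophil markers as a covariate, and leaving out each array. The t-test is the one the paper gives for single comparisons, whereas it compared the arrays by SAM. Samples were grouped by their labels, and all columns of values were used.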

Additional observations from a re-analysis of the deposited data

Results flagged for a closer look

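Within a genotype, the gap between the extreme array and its neighbour, divided by the range of the group, was compared with Dixon's critical value at the 95% level. Of 80 groups examined (38 genes and 2 class means in 2 genotypes), 6 exceeded it, and chance gives about 1 in 20. In 5 of the 6 the extreme array was LysMCre;Arntfl/fl replicate 2, on the low side, for Nr4a3 (gap of 0.896 of the range), Nr4a2 (0.875), Maff (0.862), Btg2 (0.833) and Hsph1 (0.8295). The other was Hspa8, for which LysMCre replicate 5 stood above the rest of its group by 0.824 of the range. The class means did not exceed the value in either genotype.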

How the results depend on the processing

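The number of immediate early genes called was 2 with the SAM-type d score and at an adjusted p below 0.10 (Fosb and Nr4a3 in both, against 0.882% of all probe sets in each), 1 over probe sets with 1 symbol (Fosb, against 0.616%), 2 over probe sets above the median level (Fosb and Nr4a3, against 1.19%), from 0 to 1 with 1 array left out, and 0 otherwise, where the 101 calls of the fit reported are 0.294% of all probe sets. The number of heat shock genes called was 0 under every alternative. With 1 array left out, the median log2 fold change ranged from -0.32 to -0.21 for the immediate early and from -0.63 to -0.34 for the heat shock genes. The heat shock median moved to -0.998 with the neutrophil mean as a covariate; the cause was not tested. Arrays with the same replicate number correlated at -0.120, -0.0715, -0.000463 and 0.166 after removing genotype means. These values were not set against arrays of different numbers, so whether the numbers pair the arrays was not tested. With the replicate block the medians were -0.29 and -0.49, with 0 members called. Over all probe sets there were 3 higher and 2 lower calls, against 49 and 52 without the block. Only LysMCre has a replicate 5, so the block sets that array aside, and the fold changes repeat those without it. Without that array and with no block the calls were 0 higher and 1 lower, so the effect of blocking itself was not tested. Of the 23 alternatives, 8 leave every fold change as it is, and under the other 15 the sign was kept by 33 of the 38 members. These 15 include the block, which repeats the fold changes without LysMCre replicate 5. The remaining 5 were near 0: Egr3 (-0.00436 with median centring, -0.0806 to 0.068 without single arrays), Klf2 (-0.0167 with the replicate block, -0.0569 with the covariate, -0.122 to 0.155 without single arrays), Ier3 (-0.122 to 0.000303 without single arrays), Dusp1 (0.0532 with the covariate) and Klf6 (0.177 with the covariate). Heat shock genes at an unadjusted p below 0.05 numbered 5, against 8, without LysMCre replicate 1, 4 or 5 or without LysMCre;Arntfl/fl replicate 2, and calls over all probe sets ranged from 1 to 149 without single arrays. Among the members within 0.10 of 0, the log2 fold change with 1 array left out ranged from -0.14 to -0.0014 for Myc, -0.13 to -0.03 for Gadd45b, -0.09 to -0.01 for Klf6 and -0.15 to -0.06 for Dusp1.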
